A study of Hypholoma fasciculare and Trametes versicolor and Trametes versicolor
Hypholoma fasciculare with 9 samples.

Results

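The features described here are the genes of Hypholoma fasciculare that could be counted in beechwood blocks where this fungus met Trametes versicolor. They are the features whose ID starts with H_ and that held 10 reads or more in at least 1 of the 3 contact libraries. The rule took 218 of 17911 H_ features, in a table of 32207 features for both fungi. Since the reads of the contact libraries chose them, their levels there are a description and carry no test.

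The study grew H. fasciculare strain GTWV2 and T. versicolor strain TvFPH on beechwood, alone or facing each other, and sequenced poly(A)-selected RNA. Used here are 3 libraries of blocks with both fungi, 14 h after contact, and 3 libraries of blocks with T. versicolor alone. The deposited columns of the contact libraries are named for T. versicolor in interaction, and the labels do not say from which side of the contact zone wood was taken. The labels do not say whether replicates were separate microcosms either, so the spread between them may be technical.

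H. fasciculare is a cord-forming basidiomycete of the forest floor. Its mycelium forages through soil from wood to wood and often replaces fungi that hold the wood already, T. versicolor among them. T. versicolor is a white-rot fungus that colonises fresh broadleaf wood early. Such fungi compete for wood at the front where their mycelia meet, with secreted enzymes, toxins and changes in growth form. IDs in the deposited file come without names or annotations, so what the 218 features encode is not known here, and they are described by level, length and recurrence.

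Contact libraries held 3889449, 3515400 and 4472646 counted reads in replicates 1, 2 and 3, and the libraries of T. versicolor alone 5794424, 5665121 and 7389576. Features with the T_ prefix took 99.8% to 99.9% of the reads in contact and 99.99% in T. versicolor alone. H. fasciculare was therefore read at low depth: 5018, 6920 and 6764 reads in contact, spread over 1142, 1640 and 2018 features. In the libraries of T. versicolor alone, 364, 356 and 500 reads fell on H_ features. The H_ share of all reads was 24.7 times as high in contact as in T. versicolor alone and higher in 3 of 3 libraries, which is as far as a two-sided exact permutation test over 3 and 3 libraries can go (p = 0.1, summed over every H_ feature). The low share is tied to 11 abundant T_ features: with these left out of the total, the H_ share was 50.8 percentage points higher in contact, against 0.153 with them. The remaining T_ features were therefore read at low depth in contact too. Every CPM below and the ratio of 24.7 are scaled to totals that include the 11. Amounts of mycelium and of RNA per hypha cannot be told apart in such libraries. Only the prefix of the IDs ties these features to H. fasciculare, and this was not checked on libraries of that fungus alone.

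The 218 features held close to 1 in 2 of the H. fasciculare reads in contact replicates 1 and 2, and less in replicate 3. Their reads numbered 2495, 3624 and 2519 in replicates 1, 2 and 3. This was 49.7% of H_ reads in replicate 1 (95% Wilson interval 48.3 to 51.1), 52.4% in replicate 2 (51.2 to 53.5) and 37.2% in replicate 3 (36.1 to 38.4), or 46.4% ± 8.08 (SD, n = 3). Features picked in 2 libraries held 43.7%, 20.4% and 33.6% of the H_ reads of the library left out of the picking, for replicates 1, 2 and 3 in turn. These lists differ in length, with 195, 89 and 198 features, so the 3 shares are not compared. The intervals cover counting error only, since reads from amplified libraries are not independent molecules.

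A few features carried much of the signal. The 10 highest H_ features of each library itself held 28.4%, 15.2% and 19.9% of its H_ reads in replicates 1, 2 and 3. The single highest held 6.80%, 2.53% and 4.36%. Most members were near the minimum: the median of their highest contact library was 13 reads (quartiles 11 and 19), and 20 of 218 reached 50 reads in any library. Mean level over the contact libraries ran from 0.745 to 55.9 CPM (reads per 1000000 counted reads of a library), with a median of 1.52. Of the 218, 150 had a mean under 2 CPM and 28 a mean of 5 CPM or more.

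Replicates did not detect the same members. Replicate 2 brought 159 features over the minimum, against 66 in replicate 1 and 65 in replicate 3, although it held about as many H_ reads as replicate 3 (6920 and 6764). The minimum was reached in all 3 libraries by 26 members, in 2 libraries by 20 and in 1 library by 172. Of the 172, 129 reached it in replicate 2 only, 23 in replicate 1 only and 20 in replicate 3 only. Among the 20 that reached it in 2 libraries, 16 did so in replicates 1 and 3, 3 in replicates 2 and 3, and 1 in replicates 1 and 2. Without replicate 2 the rule would take 89 features instead of 218.

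**Figure D1:**
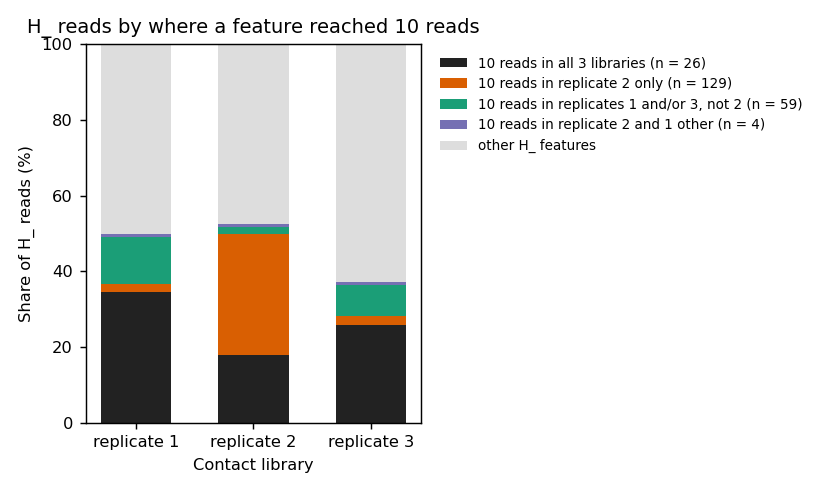
Share of H_ reads (%) in each contact library held by members grouped by the libraries in which they reached 10 reads, with all other H_ features in grey. The 129 members that reached 10 reads in replicate 2 only held 32.0% of the H_ reads there and 1.99% and 2.34% in replicates 1 and 3.

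By the way this class is defined, its 129 members had under 10 reads in replicates 1 and 3, so low values there are not a result. They held 2215 reads in replicate 2, 100 in replicate 1 and 158 in replicate 3. In replicate 2 their median was 12 reads and the highest 104. In the other libraries 61 of the 129 had no read, 45 had a read in 1 and 23 in both. H_gene_5616 (2227 bases), named after its values were seen, had the most reads among members read in 1 contact library only, with 0, 73 and 0 reads in replicates 1, 2 and 3 and none in T. versicolor alone. It took 1.05% of the H_ reads of replicate 2, while a count of 0 allows up to 0.0598% in replicate 1 and 0.0444% in replicate 3. The observed share in replicate 2 was 17.6 times the limit of 3 counts in replicate 1 and 23.8 times that in replicate 3. The 73 reads were taken as exact, and the feature was named as the most extreme of its kind. These ratios are therefore a description and no lower bound on a difference.

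Picking in 1 library and looking in the others gives a view of recurrence that the rule did not fix. Of 66 features with 10 reads in replicate 1, 61 were read in replicate 3 (92.4%, Wilson interval 83.5 to 96.7) and 47 in replicate 2 (71.2%, 59.4 to 80.7). Of 65 picked in replicate 3, 62 were read in replicate 1 (95.4%, 87.3 to 98.4) and 50 in replicate 2 (76.9%, 65.4 to 85.5). Of 159 picked in replicate 2, 70 were read in replicate 1 (44.0%, 36.5 to 51.8) and 81 in replicate 3 (50.9%, 43.2 to 58.6). These shares compare 3 single libraries, and the intervals cover counting over features only and not the spread between replicates. Of all 3752 H_ features with a read in contact, 1142 were read in replicate 1, 1640 in replicate 2 and 2018 in replicate 3. The shares were not adjusted for these differences. For the 218 members as a set the rule did fix a part, since each has 10 reads or more in at least 1 contact library. As a description, 81 of 218 had a read in each contact library (37.2%), 69 in 2 and 68 in 1. Of those 68, 61 were read in replicate 2, 4 in replicate 1 and 3 in replicate 3. Without replicate 2, 91.0% of the 89 remaining members were read in both libraries. The rule gave each of them a read in 1 of the 2, so this share is not compared with 37.2%.

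Rank agreement between libraries depended on which features were taken. Over the 218 members, Spearman's rho of reads was 0.70 for replicates 1 and 3, -0.20 for 1 and 2, and -0.12 for 2 and 3. For the same pairs Pearson's r of log2(CPM + 1) was 0.82, 0.02 and 0.13, so the sign against replicate 2 depended on the measure. The rule enters this contrast, since the 129 members that came in through replicate 2 alone are under 10 reads in both other libraries by definition. This can raise rho between those libraries and lower it against replicate 2. How much of the contrast it makes was not tested. Over the 89 members picked without replicate 2, by reads in replicates 1 and 3 themselves, rho for replicates 1 and 3 was 0.40. Over all 3752 H_ features with a read in contact, most of them read in few libraries, it was -0.04 for replicates 1 and 3, -0.14 for 1 and 2, and -0.33 for 2 and 3. Over the 26 members with 10 reads in all 3 libraries it was 0.84 for replicates 1 and 3, 0.39 for 1 and 2, and 0.33 for 2 and 3. All are descriptions across features. Of the 50 highest H_ features of each library, replicates 1 and 3 shared 31, replicates 1 and 2 shared 19, and replicates 2 and 3 shared 20.

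**Figure D2:**
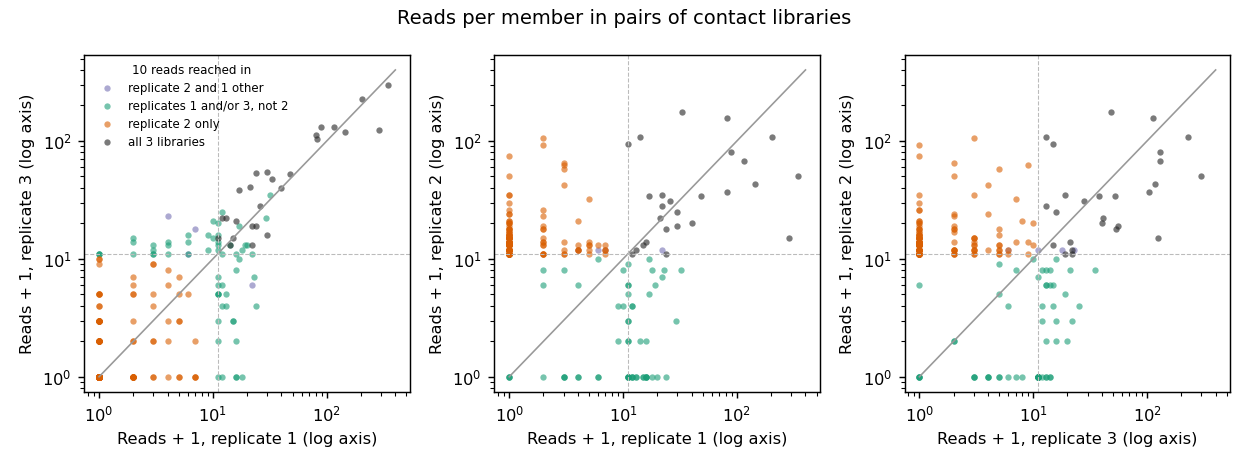
Reads + 1 per member (log axes) in 3 pairs of contact libraries, coloured by where a member reached 10 reads; dashed lines mark 10 reads and the grey line equality. Members of replicate 2 only lie under 10 reads in the other libraries by definition, and the 26 members with 10 reads in all 3 libraries have a rho of 0.84 for replicates 1 and 3 and of 0.39 and 0.33 for the pairs with replicate 2.

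The 26 members with 10 reads in all 3 libraries, called recurrent below, took a large part of the H. fasciculare reads. They held 34.6%, 17.8% and 25.9% of the H_ reads in replicates 1, 2 and 3. Their reads ran from 10 to 341 in replicate 1, from 10 to 175 in replicate 2 and from 12 to 295 in replicate 3. As a share of H_ reads, 17 of the 26 were lower in replicate 2 than in both other libraries, and 5 were higher. The 8 members with the highest mean level all belong to these 26, and alone held 25.7%, 9.93% and 17.5% of H_ reads.

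H_gene_8265 (1424 bases) was the highest of all, at 87.7, 13.9 and 66.0 CPM in contact replicates 1, 2 and 3 and a mean of 55.9 ± 37.9 (SD, n = 3). It ranked 1 among H_ features in replicates 1 and 3 and 14 in replicate 2. In T. versicolor alone it had 0, 1.41 and 3.92 CPM, all below the lowest contact library. H_gene_10211 (1479 bases) had 204, 106 and 228 reads in contact, or 52.4 CPM in replicate 1 and 30.2 in replicate 2 (mean 44.5 ± 12.5, SD, n = 3), and ranked 3, 4 and 2. It was the steadiest of the 3 highest, and its levels in T. versicolor alone were 1.04, 0.706 and 1.49 CPM.

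H_gene_7686, of only 469 bases, had 73.5, 3.98 and 27.7 CPM in contact (mean 35.1 ± 35.4, SD, n = 3), so its SD was as large as its mean. It fell to rank 61 in replicate 2 from rank 2 in replicate 1 and rank 5 in replicate 3. Per length it was the highest member, with a mean of 74.8 FPKM (reads per kilobase of feature and per 1000000 counted reads) against 39.2 FPKM for H_gene_8265. H_gene_8581 (1243 bases) went the other way, with 8.23, 49.8 and 10.5 CPM, and was the highest H_ feature of replicate 2. H_gene_9925 (3809 bases) was also highest in replicate 2, with 20.6 CPM in replicate 1 and 44.1 in replicate 2, from 80, 155 and 112 reads.

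The remaining 3 of the 8 were lowest in replicate 2. H_gene_11629 (2037 bases) had 29.3, 19.1 and 29.1 CPM in contact, and H_gene_294 (3045 bases) had 37.0, 11.9 and 26.2 CPM. H_gene_294 was nearly free of background, with 0, 0 and 2 reads in T. versicolor alone against 144, 42 and 117 in contact. H_gene_6079 (1848 bases) had the smallest spread of the 8, with 22.6, 22.5 and 28.8 CPM in contact (mean 24.6 ± 3.63, SD, n = 3). Across the 8, the order of mean levels is loose: from the third member to the eighth, means ran from 35.1 to 22.8 CPM, a gap smaller than the SD of H_gene_7686 (35.4) or of H_gene_8581 (23.4).

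**Figure D3:**
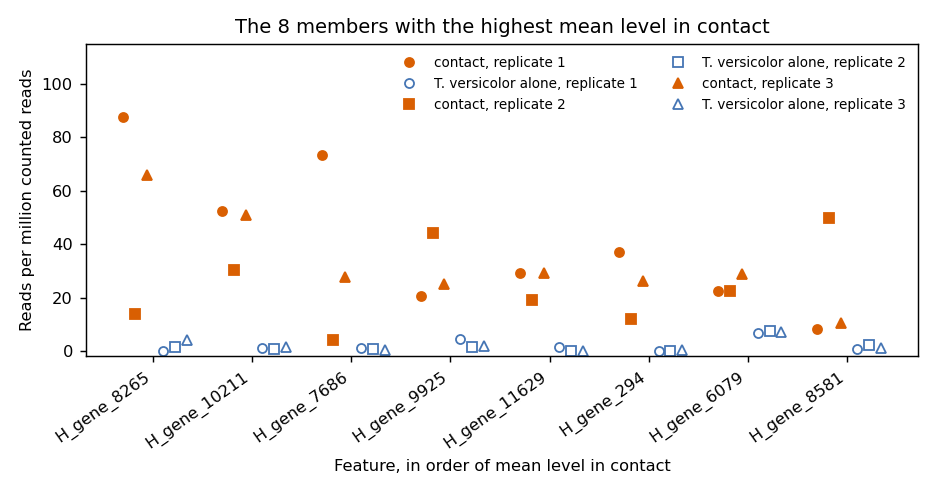
Level in CPM of the 8 members with the highest mean level, in each contact library (filled) and each library of T. versicolor alone (open). All contact points of a feature lie above all its points from T. versicolor alone, and replicate 2 is lowest of the contact libraries in 6 features (in H_gene_6079 at 22.5 against 22.6) and highest in H_gene_9925 and H_gene_8581.

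Members and other H_ features had close median lengths, and replicate 2 carried this closeness. The median of members was 1859 bases (quartiles 1271 and 2922), against 1923 bases (1258 and 2804) for the 3759 other H_ features with a read in these 6 libraries. The difference of -64 bases was -346 without replicate 2, and features picked in replicates 1, 2 and 3 alone differed from the rest by -458, -34 and -339 bases. Features over 5000 bases made up 8.72% of members and 4.87% of the others, and features under 1000 bases 14.2% and 15.3%. At equal level a longer feature gathers more reads, so a minimum in reads favours length. The difference turned with the minimum: the median of features with a minimum of 5 reads less that of the rest was 293 bases, and at a minimum of 20 reads it was -509.5 bases.

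High members were shorter than low ones in the median, while recurrent members were not shorter than every other class. The 50 with the highest mean CPM had a median of 1422 bases and the 26 recurrent ones 1485.5, whereas the 129 of replicate 2 only had 2037. The 59 members without 10 reads in replicate 2 had a median of 1583 bases. Within these it was 1365 for replicate 1 only (n = 23), 1456 for replicates 1 and 3 (n = 16) and 2637 for replicate 3 only (n = 20). The 50 lowest members had a median of 2121.5 bases. Across the 218, length and mean CPM had a Spearman rho of -0.15, which is weak. Dividing by length changed the order only in part: 39 of the 50 highest by CPM were also among the 50 highest by FPKM, and 6 of the 8 highest. H_gene_9925, of 3809 bases, went from rank 4 by CPM to rank 13 by FPKM, and H_gene_294 from rank 6 to rank 12.

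**Figure D4:**
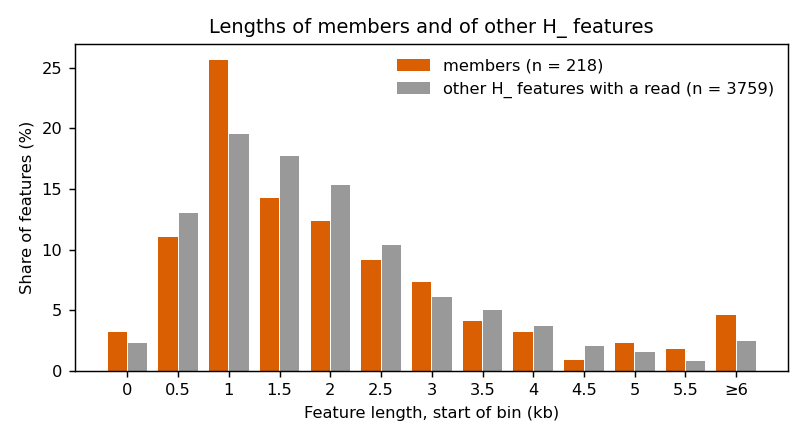
Share of features (%) per length bin of 0.5 kb for the 218 members and the 3759 other H_ features with a read. Both sets peak at the same bin, and their medians are 1859 and 1923 bases.

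Libraries of T. versicolor alone gave the background on these features. There the 218 held 134, 166 and 201 reads, or 36.8%, 46.6% and 40.2% of the H_ reads. The 218 were picked for their reads in contact, so their share there is not compared with this. Their summed level was 26.5 ± 3.14 CPM in T. versicolor alone and 745 ± 251 CPM in contact (SD, n = 3 each), so the background came to 3.56% of the level in contact, and over all H_ features to 4.05%. No read in any of the 3 libraries was found for 166 of 218 members (76.1%), 28 had a read in 1, 11 in 2 and 13 in all 3. Among the 3759 other H_ features, 3302 (87.8%) had no read there. Some of these others were read in T. versicolor alone only, since 3752 of 3977 H_ features with a read had one in contact. Members were picked for high contact reads, so 76.1% and 87.8% are not compared. In T. versicolor alone, 10 members reached 10 reads or more in a library, and no other H_ feature went above 9.

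Background reads lay mostly on the high members. Of the 50 highest by mean level in contact, 34 had a read in T. versicolor alone, against 10 of the next 50, 4 of the 50 after that and 4 of the last 68. Of the 26 recurrent members 23 had such a read, and of the 129 of replicate 2 only 12. Within the high members the background was uneven. H_gene_6079 and H_gene_9925 were the highest in T. versicolor alone and together gave 47.8%, 30.7% and 32.3% of the members' reads there. H_gene_6079 had 38, 42 and 52 reads in T. versicolor alone and 88, 79 and 129 in contact, so its background of 7.00 ± 0.429 CPM (SD, n = 3) was 28.4% of its level in contact. H_gene_9925 had 26, 9 and 13 reads in T. versicolor alone, at a mean of 8.73% of contact, and H_gene_294 only 0.360%.

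For 2 members, named after their values were seen, the background came near the level in contact. H_gene_13916 (2590 bases) had 10, 5 and 12 reads in contact and 10, 3 and 17 in T. versicolor alone, a mean of 68.2% of the contact level. H_gene_3365 (5674 bases) had 11, 0 and 3 reads against 1, 14 and 3, or 87.2%. In both the groups overlapped, so neither was read above background in every library. At the other end, H_gene_10906 (1114 bases), also named after its values were seen, had 20, 21 and 40 reads in contact and none in T. versicolor alone. It is 1 of 3 recurrent members with no background read.

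**Figure D5:**
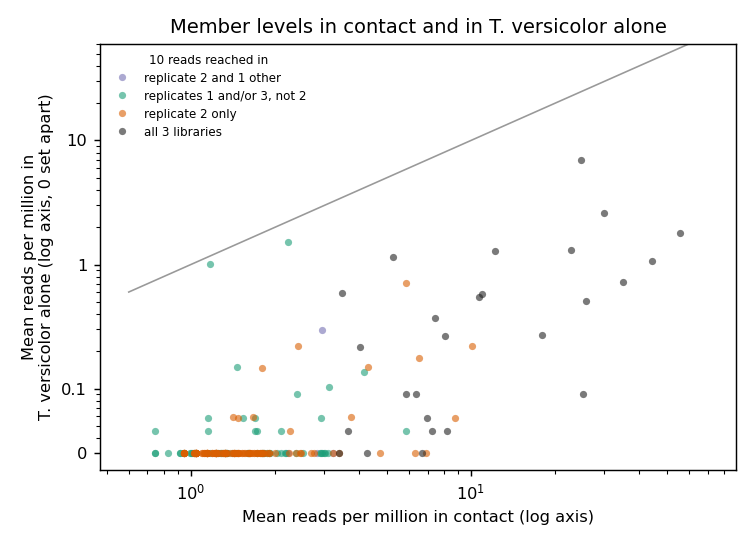
Mean level in CPM in contact and in T. versicolor alone for each member (log axes, members without a read in T. versicolor alone set at the bottom); the grey line marks equality. The 166 members at the bottom have no background read, and H_gene_6079 is the highest on the vertical axis at 7.00.

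Every contact library exceeded every library of T. versicolor alone, in CPM, for 77 of 218 members (35.3%), against 4.22% of the 3977 H_ features with a read in these libraries. The rule chose members for high contact reads, so nothing is read from this gap. All 26 recurrent members were among the 77, as were 21 of the 129 of replicate 2 only. Of the 141 others, 137 had no read in at least 1 contact library, and 4 were read in all 3 but overlapped with the background. No member was lower in every contact library than in T. versicolor alone, against 5 of the 3977 H_ features with a read. The rule makes such a member unlikely, so nothing is read from this either.

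The minimum itself cut through a dense region. There were 37 members whose highest contact library held exactly 10 reads and 48 features just outside, whose highest held 9. Their values lay close together: median lengths were 2257 and 2178 bases, 91.9% and 89.6% had no read in T. versicolor alone, 6 of each set were read in all 3 contact libraries, and median mean levels were 1.03 and 0.860 CPM.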

How the data were processed

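The authors deposited 1 table of raw read counts per feature, in whole numbers, and of FPKM values. The submitters' processing notes list HISAT2, HTSeq, edgeR and cutadapt 1.2.1 but not their settings. Builds, annotation, strandedness and the handling of reads that map to both genomes are not stated. How many reads on H_ features came from T. versicolor was not tested.

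Column names matched the labels for 6 count columns. The labels of the contact samples name both fungi, so they would also fit columns named for H. fasciculare in interaction. The table's 6 further columns of per-sample values (3 of counts, 3 of FPKM) carry H. fasciculare and interaction in their names, which no label of a remaining sample matches. They were not used, so the members' ranks in libraries of H. fasciculare are not given.

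CPM is the count per 1000000 counted reads of a library, T_ features included. T_ features with 200 reads or more in all 6 libraries (11 features) were left out of the total in an alternative. Length was recovered from each count, its deposited FPKM and the column total, with a largest relative difference of 8.3e-15 between libraries, and was obtained for all 218 members. Intervals are 95% Wilson intervals, and the limit for a count of 0 is 3 counts. The H_ share was tested with an exact permutation test (two-sided). No count model was fitted to single features, because their contact reads chose them. Member picking, length recovery and the permutation test were checked on simulated counts.

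By rule, the 8 members with the highest mean CPM in contact and the 2 highest in T. versicolor alone, both among the 8, are named. The members and this rule were chosen with earlier results of these data known. Python 3.11.15, numpy 2.4.6, pandas 2.3.3, scipy 1.17.1 and matplotlib 3.10.9 were used.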

Additional observations from a re-analysis of the deposited data

How the results depend on the processing

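The number of members, 218, was 752 at 5 reads, 54 at 20 reads, 46 when reached in 2 libraries, 26 in all 3, 141 after thinning to the smallest number of H_ reads, and 89 to 198 without 1 contact library (89 without replicate 2). Scaled to the mean number of H_ reads it was 169. Their 46.4% of H_ reads was 32.4% at 20 reads, 26.1% for those in all 3, and 32.6% when picked in the other 2 libraries. The 37.2% read in all 3 libraries was 28.9% counting from 2 reads, 17.4% from 5, 75.9% at a 20-read minimum, 69.7%, 33.3% and 76.9% picked in replicate 1, 2 or 3 alone, and 45.5% to 91.0% without 1 library. Without 1 library only 2 need a read and the rule gives 1 of them, so that range is not compared with 37.2%. The median rho of -0.12 was -0.18 to 0.40 without 1 library (0.40 without replicate 2), and 0.13 as Pearson's r of log2(CPM + 1). Members minus others in median length, -64 bases, was 293 at 5 reads, -509.5 at 20 reads, -436.5 in all 3, -896.5 when picked per base (which favours short features by construction), and -346 to -21.5 without 1 library (-346 without replicate 2). The 77 members above the background in every library were 38 at 20 reads and 77 to 99 without 1 library. The background of 3.56% was 3.07% without the 11 abundant T_ features in the total, 2.45% without its 2 highest members, 4.52% at 20 reads, and 3.19% to 4.30% without 1 library (4.30% without replicate 2). A higher minimum takes fewer features by construction, and the causes of the other shifts were not tested.

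The H_ share, 0.153 percentage points higher in contact, was 0.134 to 0.168 without 1 library, 50.8 without the abundant T_ features and 44.8 without the 50 highest features of each fungus. With a replicate block it was the same 0.153 (exact sign-flip p = 0.25, the smallest for 3 pairs). Correlations of deviations over 3977 H_ features were 0.00, 0.06 and 0.03 for same-numbered libraries and -0.06 to 0.05 for the others. Only 509 H_ features had a read in T. versicolor alone, so these values cannot show whether libraries were paired.

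Depth limits single features: 1 read was 900 of 1640 features' whole count in replicate 2, and a count of 0 allows up to 0.0434% to 0.0598% of H_ reads.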
